A study of Danio rerio with 15 samples.

Results

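The homeobox genes hmx3a and otpb encode transcription factors of subsets of spinal interneurons. All probe sets on the array whose platform annotation gives either symbol were taken, which was 1 probe set for each, so that 2 of 8793 genes and 2 of 15502 tested probe sets are described. Both genes were chosen by their high signal in V1 interneurons in these same arrays. Their levels in V1 cells, and their differences between V1 cells and the other groups, are therefore given as a description with no test. The difference between all spinal neurons and trunk cells was not the stated ground of that choice and was tested. That test is still not independent of the choice. The members were picked with earlier results of these data known, and the all-neuron group contains V1 cells.

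Homeodomain proteins bind DNA and are used in the embryonic spinal cord in combinations that mark one neuron class from another. V1 interneurons are inhibitory neurons of the ventral cord with ipsilateral axons that act on motoneurons and other targets, and in zebrafish they are called circumferential ascending (CiA) cells. They are marked by the homeobox gene en1b and carry the paired-box factors of the Pax2 and Pax8 group and the LIM homeobox factors lhx1a and lhx5. Hmx3a, of the Hmx (Nkx5) family, is best known for its part in the inner ear and the lateral line, and in the zebrafish spinal cord it has been described in V1 and in dorsal dI2 interneurons. Orthopedia, which the paralogs otpa and otpb encode in zebrafish, is best known for its part in hypothalamic neuroendocrine and diencephalic dopaminergic neurons, and in the mouse Otp is among the transcription factors that divide V1 cells into subsets.

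RNA was measured on 15 Affymetrix zebrafish arrays of cells sorted by fluorescence from embryos aged 27 hours after fertilization (hpf), which had been kept at 28.5 °C up to 10 hpf and at 32 °C from then on. V1 cells came from Tg(pax2a:GFP) embryos (6 arrays), in which the reporter also marks other pax2a-expressing tissue such as the pronephros, and this was cut away before dissociation. Of 21 measured pronephros genes, 12 were called higher and 1 lower in V1 than in trunk arrays, beside 22% and 18% of all probe sets. Among the 12, pax2a, lhx1a, ret, jag2b and trpm7 were also called higher in all spinal neurons than in trunk, and the others were not. The 1 lower gene, gata3, was higher in all spinal neurons too, so the count is not of pronephros signal alone. Whether the removal was complete was not tested. All spinal neurons came from Tg(elavl3:EGFP) embryos (5 arrays), whose reporter marks postmitotic neurons, V1 cells among them. Trunk cells came from embryos labelled as carrying no transgenic line (4 arrays) and held the spinal cord together with muscle, skin, vessels and other tissue. The submitters call the arrays of a group biological replicates, the RNA was amplified before labelling, and how many embryos went into an array is not given in the sources used here. Values are RMA levels on the log2 scale, so a difference of 1 is a doubling of signal. Their median over all probe sets and arrays was 5.52 and their first quartile 4.07. No detection call was used, so a level below the first quartile is not known to lie above background.

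Some arrays stood apart within their groups. Trunk arrays 1 and 2 read 8.02 and 8.16 on one control probe set, where trunk arrays 3 and 4 read 5.63 and 5.71, V1 arrays at most 5.59 and all-neuron arrays at least 10.16. One elavl3 probe set split the trunk arrays in the same way, at 7.51 and 7.11 against 4.62 and 5.20, with all-neuron arrays at 9.03 or more. On both probe sets trunk arrays 1 and 2 thus lay between the arrays of the elavl3:EGFP line and the other trunk arrays, so the 4 arrays that share the trunk label did not read alike. What the control probe set detects is not named in the annotation used here, and whether arrays 1 and 2 held cells of a reporter line was not tested. The mean of 30 skeletal muscle genes was 8.74 to 8.98 in all-neuron arrays 1 to 3 and 7.15 and 7.37 in arrays 4 and 5. The differences of hmx3a and otpb are therefore given with and without these arrays. Other printed values are given without them where a call was lost or a count moved by over 1.5 times. Counts of blood, crest, pronephros, skin and muscle genes between V1 and trunk are given with all arrays only.

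The labelled cells were read on their defining genes first. pax2a and elavl3 are the genes of the reporters by which V1 cells and all neurons were sorted. Their levels in those groups are therefore no separate check of what the cells are. en1b was at 11.25 ± 0.24 (SD, n = 6) in V1 arrays, 9.64 ± 0.20 (n = 5) in all-neuron arrays and 8.13 ± 0.16 (n = 4) in trunk arrays, and its difference between V1 and all neurons was 1.61 (SE 0.12, limma adjusted p = 2.78e-07). Its paralog en1a lay near the bottom of the scale in every group, at 2.91, 2.95 and 3.48. pax2a was 2.46-fold higher in V1 than in all neurons in its brighter probe set (limma adjusted p = 0.000196), while the dimmer one missed the threshold (0.29, limma adjusted p = 0.0523). elavl3, a gene of postmitotic neurons, was higher in all neurons than in trunk by 1.56 in its brightest probe set (limma adjusted p = 8.18e-05) and differed by 0.13 between V1 and all neurons (adjusted p = 0.736). The elavl3 probe set that split the trunk arrays read otherwise. It was lower in V1 than in all neurons (limma difference −2.87, adjusted p = 6.94e-05) and did not pass between V1 and trunk (0.26, adjusted p = 0.649). The remaining elavl3 probe sets differed by 0.18 and 0.15 between V1 and all neurons (limma adjusted p = 0.33 and 0.667).

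hmx3a stood highest in V1 cells, a little lower in the neurons at large and far lower in trunk cells. In V1 arrays its level ran from 8.59 to 9.46 with a median of 9.12. All-neuron arrays 1 to 5 had 8.21, 8.13, 8.23, 8.52 and 8.56, while trunk arrays 1 to 4 had 5.66, 5.18, 6.25 and 5.97. No array of one group overlapped with another group, but the lowest V1 array lay only 0.03 above the highest all-neuron array, whereas the lowest all-neuron array lay 1.88 above the highest trunk array. How many of all probe sets keep the groups apart in this way was not counted, so this is not read as a trait of hmx3a. en1b, lhx5 and the brighter pax2a probe set did not overlap between groups either.

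The group means of hmx3a were 9.10 ± 0.28 (SD, n = 6) in V1, 8.33 ± 0.20 (n = 5) in all neurons and 5.76 ± 0.46 (n = 4) in trunk. V1 cells were thus 0.77 above all neurons on the log2 scale, or 1.70-fold, and 3.33 above trunk cells, or 10.1-fold. Without all-neuron arrays 1 to 3 the first difference was 0.56, with equal ribosomal protein means on every array it was 0.20, and without trunk arrays 1 and 2 the second was 2.99. All of these are descriptions with no test.

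otpb also stood highest in V1 cells, lower in the neurons at large and lowest in trunk cells. In V1 arrays its level ran from 6.66 to 7.98 with a median of 7.03. All-neuron arrays 1 to 5 had 5.38, 5.20, 5.39, 5.10 and 5.39, while trunk arrays 1 to 4 had 3.59, 3.32, 4.02 and 4.08. The 3 groups did not overlap, with 1.26 between the lowest V1 and the highest all-neuron array and 1.02 between the lowest all-neuron and the highest trunk array. As for hmx3a, the share of all probe sets without overlap was not counted.

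The group means of otpb were 7.12 ± 0.47 (SD, n = 6) in V1, 5.29 ± 0.13 (n = 5) in all neurons and 3.75 ± 0.36 (n = 4) in trunk. V1 cells were 1.83 above all neurons, or 3.55-fold, again with no test. Against trunk the log2 difference was 3.37, but the trunk mean lay below the first quartile of all values, so that difference is one of signal and no fold is given. V1 array 3 stood highest, at 7.98 against 7.20 for the next array, and without it the difference between V1 and all neurons was 1.65. That difference was 1.87 without all-neuron arrays 1 to 3, and the one from trunk was 3.07 without trunk arrays 1 and 2. With equal ribosomal protein means otpb was 1.26 above all neurons in V1 and 2.00 above trunk in all neurons, so which of its steps was the larger depended on the scaling.

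**Figure D1:**
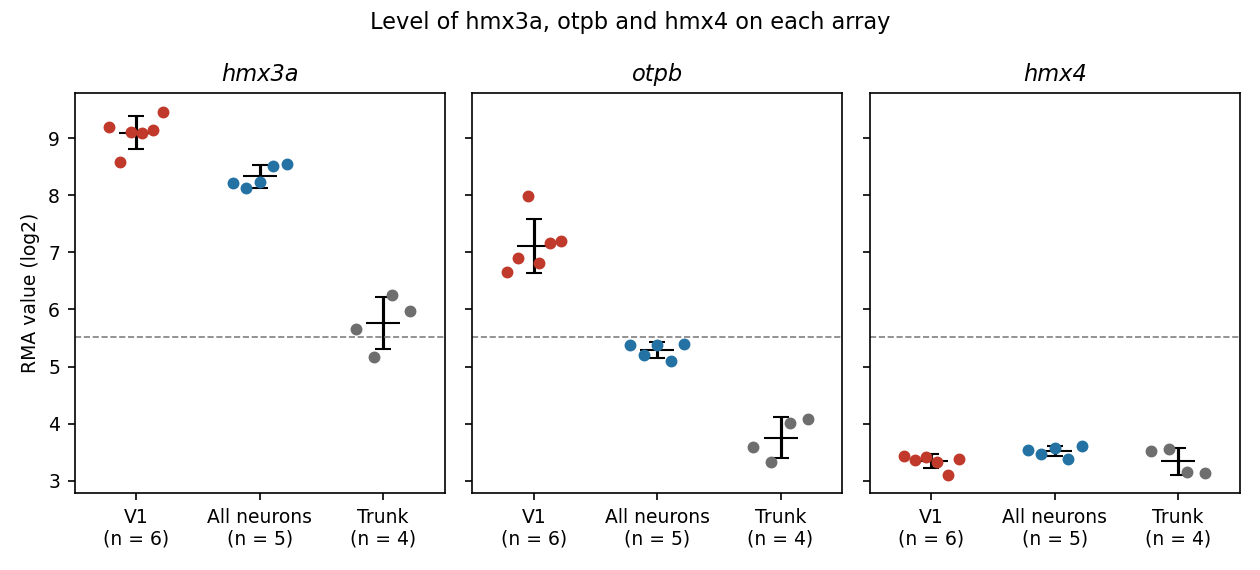
RMA level (log2) of hmx3a, otpb and hmx4 on each of the 15 arrays, by group, with the group mean and SD and a dashed line at 5.52, the median of all values. The V1 and all-neuron arrays of hmx3a almost touch, while the closest arrays of different otpb groups are 1.02 apart. The groups of hmx4 overlap and lie below the line.

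In a sorted population, fewer cells of a type that carry a transcript and less of it in each cell cannot be told apart, and this holds for every difference here. The all-neuron group also contains V1 cells, and the 3 comparisons share arrays, so their values are set side by side and not counted as separate evidence.

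Both genes rose from trunk cells to all spinal neurons. The difference was 2.56 for hmx3a (SE 0.19, 5.92-fold, limma adjusted p = 9.03e-08), with all 5 neuron arrays above all 4 trunk arrays. It was 1.54 for otpb (SE 0.22, limma adjusted p = 3.49e-05), again with all 5 above all 4. Of all 15502 probe sets, 20.8% passed the same test as higher in all neurons and 20.6% as lower, so passing it is common. The share of probe sets with no overlap between these groups was not counted. By size, the hmx3a difference ranked 13 among 8793 genes and the otpb difference 278. The 21 measured genes of postmitotic neurons had a median difference of 1.85 in the same comparison, above that of otpb and below that of hmx3a.

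Trunk arrays 1 and 2 were lower than trunk arrays 3 and 4 for both genes. Without them the difference between all neurons and trunk was 2.22 for hmx3a (limma adjusted p = 3.6e-06) and 1.24 for otpb (limma adjusted p = 0.00209). hmx3a was also higher in all-neuron arrays 4 and 5 than in arrays 1 to 3. Without arrays 1 to 3 its difference from trunk was 2.77 (limma adjusted p = 3.51e-06) and that of otpb 1.49 (limma adjusted p = 0.00205).

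**Figure D2:**
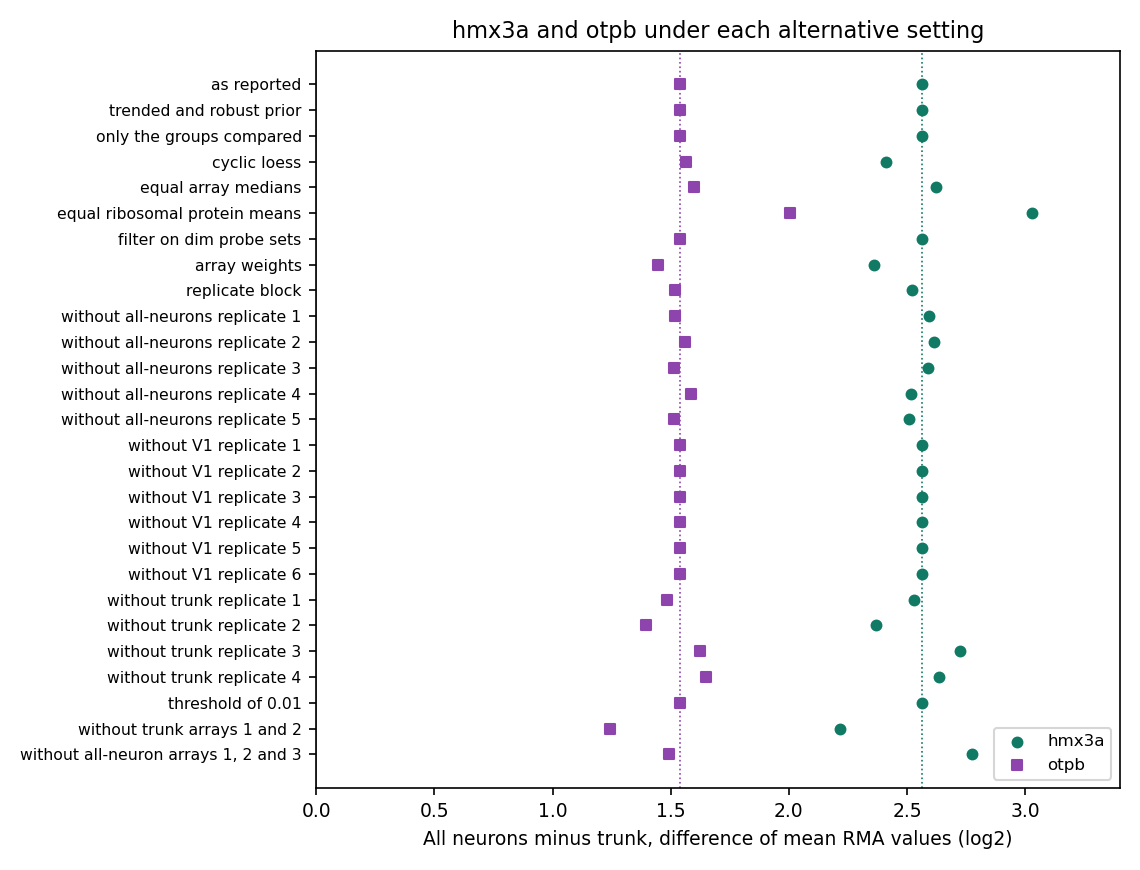
Log2 difference between all spinal neurons and trunk cells for hmx3a and otpb under the reported fit and each of 26 alternatives in scaling, model and arrays used. hmx3a lies between 2.22 and 3.03 and otpb between 1.24 and 2.00, and both passed the threshold in every one. Alternatives that leave out a V1 array or change the prior or the threshold cannot move these differences.

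Another gene of the Hmx family, hmx4, lay near the bottom of the scale. Of 8 symbols of the Hmx and Otp families that were looked up, 3 had a probe set with that symbol alone, and the others, hmx2 and otpa among them, were not analysed here. hmx4 lay at 3.34 ± 0.12 (SD, n = 6) in V1, 3.52 ± 0.09 (n = 5) in all neurons and 3.34 ± 0.23 (n = 4) in trunk, all below the first quartile. It did not pass between V1 and all neurons (−0.18, limma adjusted p = 0.22), V1 and trunk (−0.002, adjusted p = 0.989) or all neurons and trunk (0.17, adjusted p = 0.215). Without trunk arrays 1 and 2 the last of these was 0.38 (limma adjusted p = 0.0126). Under a scaling to equal ribosomal protein means, the first was −0.74 (limma adjusted p = 0.000202) and the last 0.64 (adjusted p = 0.0014), where the median of all probe sets stood at −0.57 and 0.44. Such low values cannot show whether the gene is off.

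otpb and hmx3a ranked 1 and 2 among the 8793 genes by the size of the difference between V1 and trunk. The genes behind them were penkb (3.18), which encodes a proenkephalin, en1b (3.12), lhx5 (3.08), nrxn1a (2.91), which encodes the synaptic adhesion protein neurexin, mab21l1 (2.87), elapor2b (2.85), pax2a (2.82) and nxph1 (2.63), which encodes neurexophilin, a secreted ligand of neurexins. By the difference between V1 and all neurons otpb ranked 125 and hmx3a 543, behind globin, pigment cell and pronephros genes. Both were chosen for high V1 signal in these arrays, so a high rank against trunk follows from that choice and is no separate result. Over 27 settings, the reported one included, otpb ranked 1 to 2 and hmx3a 1 to 4 between V1 and trunk. Some of these settings, such as those that leave out an all-neuron array, cannot move that difference. Between V1 and all neurons otpb ranked 108 to 171, with differences of 1.26 to 1.92, and hmx3a 422 to 1199, with differences of 0.20 to 0.87. The hmx3a rank of 1199 came without all-neuron arrays 1 to 3. The otpb rank of 108 came with dim probe sets left out, among 5299 genes.

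**Figure D3:**
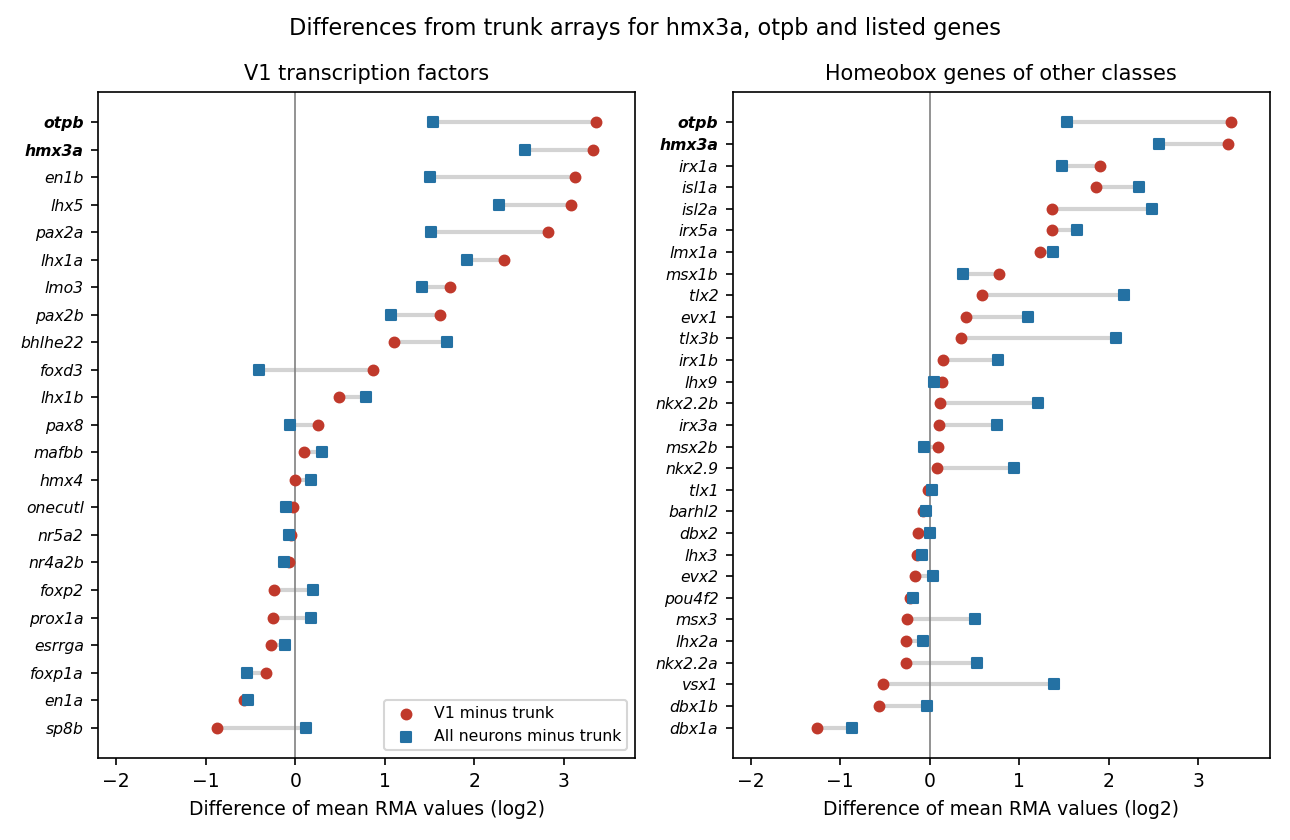
Log2 difference of mean level from trunk arrays in V1 arrays (circles) and all-neuron arrays (squares) for hmx3a and otpb beside listed genes. Left, hmx4 and the V1 transcription factors. Right, homeobox genes of other spinal neuron classes and of progenitor domains. hmx3a (3.33 and 2.56) and otpb (3.37 and 1.54), which were chosen for high V1 signal, have the largest V1 differences of the genes drawn. tlx3b (0.35 and 2.08) is one whose square lies well to the right of its circle.

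The V1 and dI2 programmes around both genes were then read gene by gene. Among 20 measured V1 transcription factors, 5 were higher and 2 lower in V1 than in all neurons, with a median difference of 0.07, and 12.7% of all probe sets were called higher and 9.3% lower in that comparison, with a median of −0.01. The higher genes were en1b, pax2a, foxd3, lhx5 and lhx1a. The lower ones were sp8b and foxp2, the latter at 4.27 in V1 and 4.70 in all neurons, not far above the first quartile. Against trunk, 9 were higher and 2 lower in V1, with a median of 0.18, beside 22% and 18% of all probe sets and a median of −0.02, and without trunk arrays 1 and 2 the count lower was 1. Between all neurons and trunk 8 were higher and 2 lower, with a median of 0.19, beside 20.8% and 20.6% and a median of −0.03. With equal ribosomal protein means, 3 of the V1 factors were higher and 11 lower in V1 than in all neurons, beside 497 and 11779 of 15502 probe sets. In that setting 14 of the V1 factors were higher in all neurons than in trunk, beside 8446 of 15502 probe sets.

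The LIM homeobox gene lhx5 was higher in V1 than in all neurons by 0.81 (limma adjusted p = 0.000105) and higher in all neurons than in trunk by 2.27 (limma adjusted p = 7.95e-09), where hmx3a had 0.77 and 2.56. Without all-neuron arrays 1 to 3 the first of these was 0.57 (limma adjusted p = 0.0122). With the ribosomal protein means set equal on every array, it was 0.25 (limma adjusted p = 0.191). Its relative lhx1a was higher in V1 than in all neurons by 0.41 (limma adjusted p = 0.0221) in its brightest probe set. The other lhx1a probe sets did not pass (0.35 and 0.73, limma adjusted p = 0.0801 and 0.104). The call of the brightest was lost without all-neuron array 1 (0.36) or array 2 (0.38) and without arrays 1 to 3 (0.22). Its value turned to −0.15 with equal ribosomal protein means. foxd3, a forkhead factor of dI2, V1 and neural crest cells, was higher in V1 than in all neurons by 1.28 (limma adjusted p = 7.42e-05). sp8b, a zinc finger factor that in the mouse marks a V1 subset as Sp8, was lower by 0.99 (limma adjusted p = 0.00912), a call lost without all-neuron arrays 1 to 3 (−0.62, adjusted p = 0.242).

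Of 7 measured genes listed as dI2 transcription factors, 3 were higher (foxd3, lhx5 and lhx1a) and 1 lower (foxp2) in V1 than in all neurons. The median difference was 0.09, beside 12.7% and 9.3% of all probe sets called higher and lower. With equal ribosomal protein means 1 was higher and 4 lower, beside 497 and 11779 of 15502 probe sets. Without all-neuron arrays 1 to 3, 2 of the listed factors were higher and 2 lower. The 4 genes called are also on the V1 list. Between all neurons and trunk 3 were higher (lhx5, lhx1a and lhx1b) and 0 lower, with a median of 0.20, beside 20.8% and 20.6%. lhx9 and barhl2, factors of dorsal spinal interneurons that are not on the V1 list, were near 3 in every group, at 3.03 to 3.17 and 2.96 to 3.04. Both are also counted on the list of homeobox genes of other spinal neuron classes, so their levels do not speak for dI2 cells in particular.

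Homeobox genes of other spinal neuron classes were read beside hmx3a and otpb. The list also holds genes of progenitor domains (the dbx, irx, msx and nkx2 genes), so its counts are not of neuron-class factors alone. Of 27 measured genes, 0 were higher and 12 lower in V1 than in all neurons, with a median of −0.39, and 15 did not pass, beside 12.7% and 9.3% of all probe sets. The lower ones included nkx2.2a, nkx2.2b, nkx2.9, irx1b, irx3a and msx3 of the progenitor genes. The others were evx1, tlx2, tlx3b, vsx1, isl1a and isl2a. In all neurons against trunk 14 were higher and 0 lower, with a median of 0.52, beside 20.8% and 20.6%. In V1 against trunk 6 were higher and 3 lower, beside 22% and 18%, and without trunk arrays 1 and 2 these were 6 and 0. irx1a and msx1b lay above all neurons in V1, by 0.43 and 0.41, but did not pass (limma adjusted p = 0.0806 and 0.112). isl2a, a LIM homeobox factor of motoneurons and Rohon-Beard sensory neurons, was 2.49 above trunk in all neurons (limma adjusted p = 2.52e-07) but 1.12 below all neurons in V1 (limma difference −1.12, adjusted p = 0.000617). tlx3b, a factor of dorsal excitatory neurons, had differences of 2.08 (limma adjusted p = 9.19e-07) and −1.73 (adjusted p = 7.33e-06). vsx1, a factor of V2a excitatory interneurons, had 1.39 (limma adjusted p = 2.46e-05) and −1.91 (adjusted p = 1.49e-06).

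The count of genes lower in V1 than in all neurons was 25 with equal ribosomal protein means. There 11779 of 15502 probe sets were lower and the median of all probe sets itself stood at −0.57. With dim probe sets left out, where fewer genes were tested, the count was 7, beside 908 of 7867 probe sets. The count higher in all neurons than in trunk was 23 and 9 under the same settings, beside 8446 of 15502 and 2585 of 7867 probe sets.

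The genes whose profile over the 15 arrays was most like each member were found by the root mean square difference between log2 profiles, each centred on its own mean, where 0 would be identical. For hmx3a they were lhx5 (0.24), nxph1 (0.34), mab21l1 (0.38), penkb (0.38) and elapor2b (0.39), against a median over all genes of 1.43. For otpb they were en1b (0.35), pax2a (0.50), lhx5 (0.54), penkb (0.56) and nrxn1a (0.57), also against a median of 1.43. The members were 0.59 from each other, which placed otpb at rank 29 for hmx3a and hmx3a at rank 7 for otpb. These distances use the V1 arrays on which the members were chosen, and the points share arrays and scaling.

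mab21l1, a gene of neural and eye development, was 2.87 above trunk in V1 and 2.08 above trunk in all neurons, and nxph1 had 2.63 and 2.29. The same differences were 3.33 and 2.56 for hmx3a. They were 3.12 and 1.51 for en1b and 2.82 and 1.52 for pax2a, beside 3.37 and 1.54 for otpb. Over the 10 arrays left without all-neuron arrays 1 to 3 and trunk arrays 1 and 2, lhx5 was still the nearest gene to hmx3a (0.13) and en1b the nearest to otpb (0.38). penkb and elapor2b were then no longer among the 10 nearest to hmx3a, and for otpb lhx5 fell to rank 7 and penkb to rank 8.

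**Figure D4:**
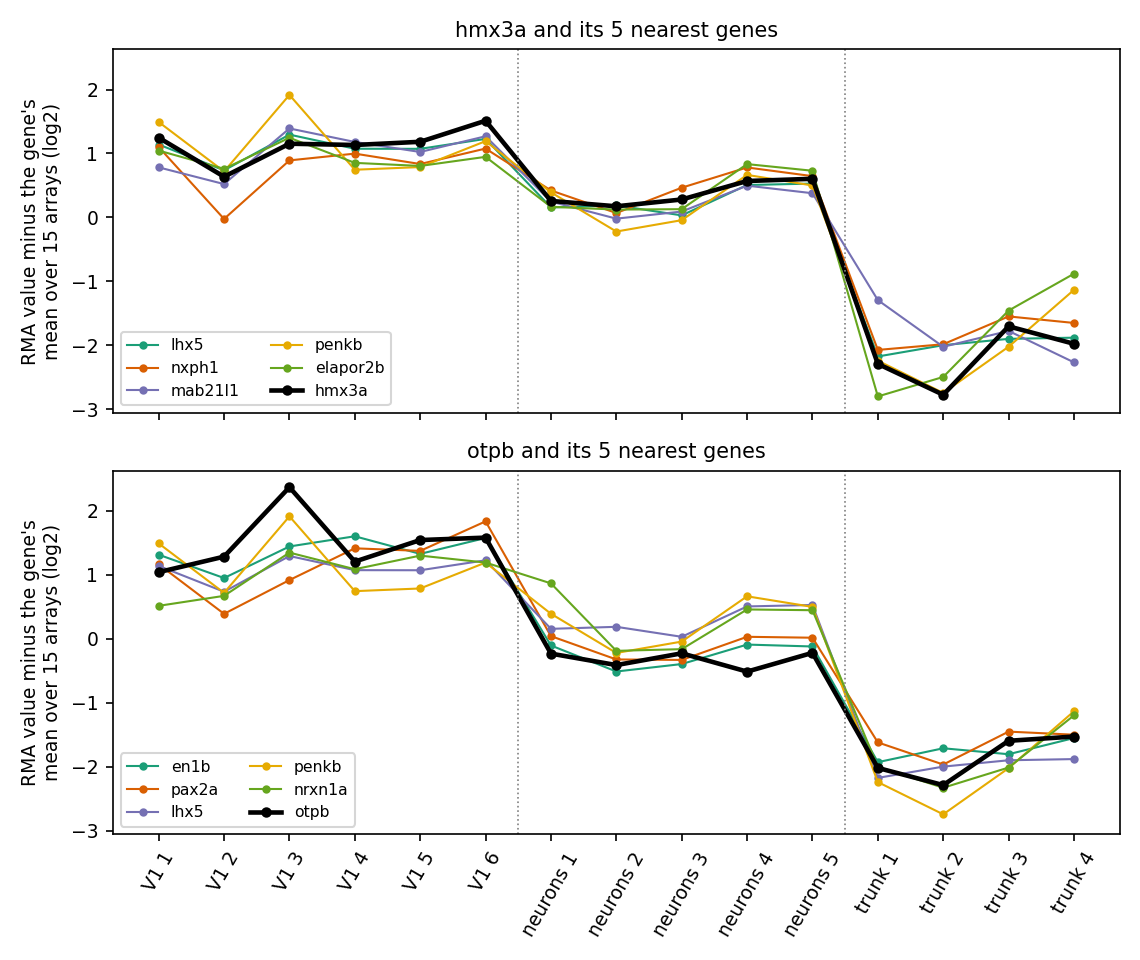
Centred log2 profiles over the 15 arrays of hmx3a and of otpb, each with the 5 genes nearest to it. The profiles of lhx5 and hmx3a (distance 0.24) and of en1b and otpb (distance 0.35) lie closest together.

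The arrays at the edges of the V1 group differed in other genes too. V1 array 2, the lowest for hmx3a (8.59), was also the lowest V1 array for en1b (10.83), pax2a (7.33) and lhx5 (9.32), and had the highest mean of 23 blood and vessel genes (7.45, against 6.32 to 7.23 in the other V1 arrays). V1 array 3, the highest for otpb (7.98), had the lowest means of blood and vessel genes (6.32) and of neural crest and pigment genes (7.58, against 8.10 to 8.41). hmx3a in that array, at 9.10, was near its V1 median. V1 array 6 went the other way from array 2. It was the highest V1 array for hmx3a (9.46) and for pax2a in its brighter probe set (8.77), yet its mean of blood and vessel genes was the next highest (7.23). The part of these cells in any of these values was not tested.

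Markers of other cells moved with the groups. In V1 against all neurons, 21 of 23 blood and vessel genes were higher and 1 lower, 11 of 12 neural crest and pigment genes were higher and 0 lower, and 12 of 21 pronephros genes were higher and 2 lower, beside 12.7% and 9.3% of all probe sets. The list means were 6.32 to 7.45 in V1 against 4.48 to 4.59 in all-neuron arrays for blood and vessel genes, 7.58 to 8.41 against 5.66 to 6.19 for crest and pigment genes, and 6.24 to 6.70 against 5.35 to 5.74 for pronephros genes. Of the pronephros genes called higher, pax2a and lhx1a are also on the V1 list. Of the crest and pigment genes called higher, foxd3 is also on the V1 and dI2 lists, so its call counts in each. Of 23 skin genes 5 were higher in V1 than in all neurons and 0 lower, and of 30 muscle genes 0 were higher and 20 lower, or 6 lower without all-neuron arrays 1 to 3. Against trunk, 10 of 12 crest and pigment genes were higher in V1 and 0 lower, beside 22% and 18% of all probe sets. Of 21 pronephros genes 12 were higher and 1 lower, and of 23 blood and vessel genes 2 and 1. Of 23 skin genes 3 were higher and 11 lower, and of 30 muscle genes 0 and 30. Trunk arrays had list means of 6.73 to 7.36 for crest and pigment genes and 5.47 to 5.69 for pronephros genes. These counts use all 4 trunk arrays.

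In all neurons against trunk, 30 of 30 skeletal muscle genes and 15 of 23 skin genes were lower, and 20 of 21 genes of postmitotic neurons were higher, beside 20.6% of all probe sets lower and 20.8% higher. Without trunk arrays 1 and 2 the count of skin genes lower was 4. The mean of the muscle genes was 7.15 to 8.98 in all-neuron arrays, 10.46 to 10.65 in trunk arrays and 6.68 to 7.49 in V1 arrays, and that of the neuron genes was 9.87 to 10.36, 8.08 to 8.63 and 9.45 to 9.96. Blood and vessel genes were lower in all neurons than in trunk for 21 of 23, crest and pigment genes for 7 of 12 and pronephros genes for 5 of 21, while 7 pronephros genes were higher. The part of these cells in the differences of hmx3a and otpb was not tested.

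**Figure D5:**
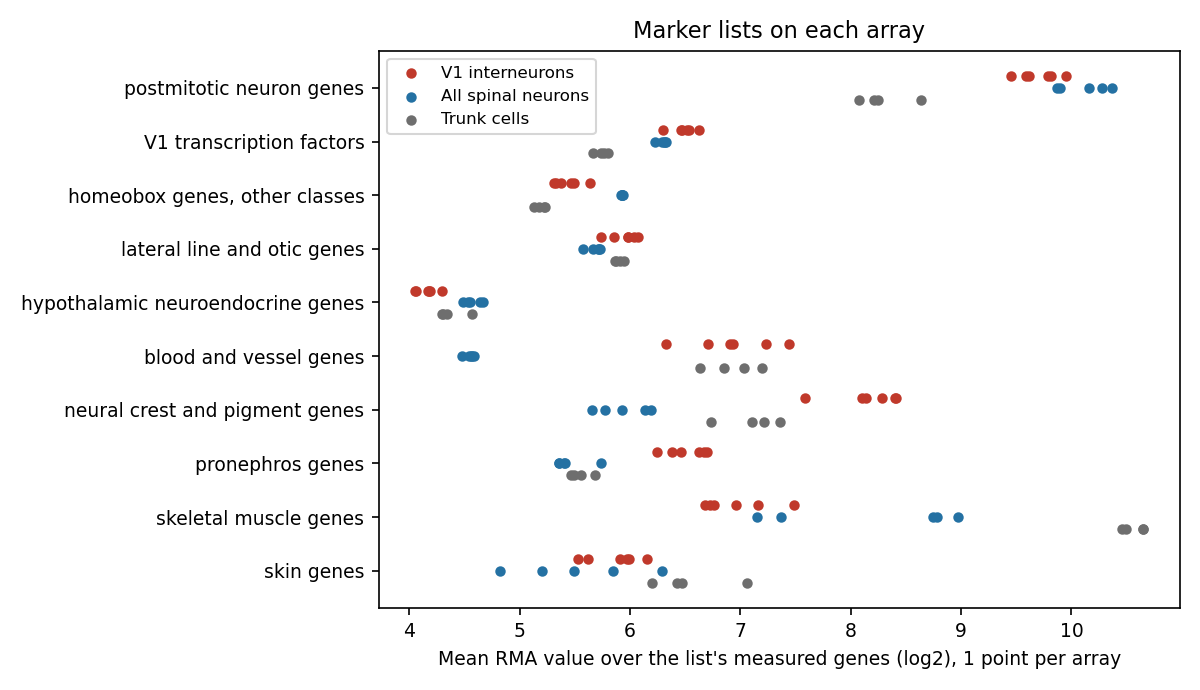
Mean RMA level (log2) of the genes of each marker list on each array, by group. V1 arrays carry more blood, crest and pronephros signal than all-neuron arrays, and trunk arrays carry the most muscle signal (10.46 to 10.65).

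The tissues for which both genes are otherwise known were read in the same way. Of 21 measured genes of the lateral line and ear, 3 were higher (sox10, cldnb and lef1) and 1 lower (etv4) in V1 than in all neurons, beside 12.7% and 9.3% of all probe sets. sox10 is also on the neural crest and pigment list. Without all-neuron arrays 1 to 3 the count higher was 5, and without trunk arrays 1 and 2 the count lower was 2. The list mean was 5.74 to 6.07 in V1, 5.57 to 5.73 in all-neuron and 5.87 to 5.94 in trunk arrays. Against trunk, 4 were higher and 4 lower in V1, beside 22% and 18%. In all neurons 3 were higher than in trunk and 7 lower, beside 20.8% and 20.6%, and without trunk arrays 1 and 2 these were 3 and 4. etv4 (1.53), cxcr4b (1.24) and neurod1 (1.05) were the higher ones. eya1 and six4b, transcriptional regulators of sensory placodes that muscle also uses, were lower than trunk in all neurons by 2.37 and 1.65 (limma differences −2.37, adjusted p = 1.18e-06, and −1.65, adjusted p = 1.35e-07). cldnb, a claudin of the lateral line and skin, was 1.28 higher in V1 than in all neurons (limma adjusted p = 0.00103) and lower in all neurons than in trunk (−0.84, limma adjusted p = 0.0168). The part of lateral line cells in the level of hmx3a was not tested.

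Of 11 measured genes of the neuroendocrine hypothalamus, where otpb is best known, 0 were higher and 1 lower in V1 than in all neurons, beside 12.7% and 9.3% of all probe sets. Against trunk 0 were higher and 2 lower in V1, beside 22% and 18%, and 2 higher and 0 lower in all neurons, beside 20.8% and 20.6%, so these counts lie near the background or below it. The count lower than all neurons was 2 without all-neuron arrays 1 to 3, and that lower than trunk was 1 without trunk arrays 1 and 2. The 2 higher ones were sst1.1, which encodes somatostatin and is also used by spinal neurons (2.63, limma adjusted p = 9.7e-08), and ddc, a monoamine synthesis enzyme (0.27, limma adjusted p = 0.0402). sim1a, a transcription factor that works beside Otp in the hypothalamus, lay at 4.14 in V1, 4.24 in all neurons and 4.27 in trunk, close to the first quartile. th, the rate-limiting enzyme of dopamine synthesis, lay at 4.23, 4.34 and 4.36. The list mean was 4.06 to 4.29 in V1, 4.48 to 4.67 in all-neuron and 4.30 to 4.57 in trunk arrays, close to the first quartile throughout. sst1.1 was lower in V1 than in all neurons by 3.48 (limma difference −3.48, adjusted p = 6.12e-09). The part of such cells in the level of otpb was not tested.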

How the data were processed

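The deposited values are log2 RMA levels, which, per the submitters' processing notes, the authors computed in Affymetrix Expression Console. The log2 scale was read from the range of the values. No version, chip definition or genome build is given in the sources used here. Of 15617 probe sets, 115 controls were set aside, and gene names came from the platform annotation, with 10795 probe sets carrying 1 symbol, 135 several and 4572 none. One limma model (version 3.58.1, R 4.3.3, lmFit and eBayes) held a mean per group over the 15 arrays and left 12 residual degrees of freedom before moderation, with Benjamini-Hochberg adjustment over 15502 probe sets and a threshold of 0.05. Array number limits the precision. A listed gene was represented by its brightest probe set with 1 symbol.

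Named genes were the members, their measured family, en1b, en1a, pax2a and elavl3, up to 3 genes each way from the V1, dI2 and other-class lists between all neurons and trunk and between V1 and all neurons, the 5 nearest genes to each member and the brightest V1 gene of each marker list. Genes named beyond these illustrate counts or marker lists and were chosen after their values were seen. The members and lists were chosen with earlier results of these data known. The steps were tested on simulated data. Plots were made in Python 3.11.15 with matplotlib 3.10.9.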

Additional observations from a re-analysis of the deposited data

Results flagged for a closer look

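No array of hmx3a or otpb lay far from the others of its group by Dixon's test. Among 47 probe sets of the named genes in 3 groups each, 11 of 141 groups held an array far from the rest, and chance gives about 1 in 20. 4 of them were low values in all-neuron array 1, with elavl3 (its dimmest probe set) at 5.74, foxd3 at 8.18, vsx1 at 4.91 and actc1b (one of its dim probe sets) at 3.45. The same array had the one high value, atp1a1a.4 of the pronephros at 8.75, where the next array read 4.24. V1 array 2 was low for lhx1a (its second probe set, 6.53) and for nxph1 (8.05), a gene near hmx3a in profile. hmx4 was low in V1 array 5 (3.10) and elavl3 (the probe set that split the trunk arrays) in V1 array 1 (6.07). lhx1a (its brightest probe set) was low in trunk array 4 (6.24) and hbae3 (its other probe set) in trunk array 3 (8.91).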

How the results depend on the processing

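The differences of hmx3a and otpb between all neurons and trunk passed the threshold under all 26 alternatives, at adjusted p of 6.18e-09 to 5.02e-06 and 7.66e-07 to 0.00209. Some alternatives, such as those without a V1 array, could not move the differences themselves. With the means of 68 ribosomal protein genes set equal, the median of all probe sets moved to −0.57 between V1 and all neurons, −0.12 between V1 and trunk and 0.44 between all neurons and trunk. Against that shift, hmx3a was 0.20 and otpb 1.26 above all neurons in V1, lhx1a was at −0.15, and calls numbered 12276 between V1 and all neurons (497 higher, 11779 lower) and 9715 between all neurons and trunk (8446 and 1269). The reported splits were 1966 and 1442, and 3219 and 3196. A threshold of 0.01 left 1985 calls between V1 and all neurons. Without trunk arrays 1 and 2 the V1 difference of hmx3a from trunk was 2.99. Whether replicate numbers pair the arrays is not known. Of 13 same-numbered pairs, 4 correlated above 0.1 in their deviations from the group means (r −0.13 to 0.36). Arrays with different numbers were not compared, so these values cannot decide it. With the replicate number as a block, hmx3a was at 2.52 and otpb at 1.52 between all neurons and trunk, and the lhx1a call between V1 and all neurons was lost (0.37). For 31 other named genes, 2279 of 2400 values kept their side of the threshold and direction, 78 lost a call, 42 gained one and 1 reversed. The cause of these changes was not tested. No detection call was used, which limits statements on otpb in trunk and on hmx4.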
